A study of Mus musculus with 12 samples.

Results

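The transcripts described here are the replication-dependent histone genes and the small structural RNAs, chosen by name: every entry of the normalized count table whose gene symbol begins with Hist1h to Hist4h, Snora, Snord, Scarna, Rnu or Rn7s, or is Rmrp or Rpph1. The rule found 220 of the 106518 RefSeq transcripts listed, 76 of them histone entries (69 symbols) and 144 small RNA entries.

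Both cell lines, P3D8 and P3E3, are clonal, each grown from a single lacZ-positive fibroblast of the mouse terminal digit bone (P3), so each stands for 1 clone. P3D8 BMP9 and P3E3 BMP9 are cartilage made in culture: cells were aggregated for 4 days with 50 ng/ml BMP2 and then kept for 14 days with 50 ng/ml BMP9. P3D8 monolayer and P3E3 monolayer are the same clones grown flat on fibronectin to near confluence in low serum with EGF, PDGF and LIF, without either BMP. Each of the 4 groups has 3 libraries. The paper states 3 separate experiments for the cartilage of each line, and does not say this of the monolayers. All cells were at passage 6, and cartilage and monolayer differ in culture form, medium and time as well as in BMP. The cell line entry of 4 libraries, 1 per group, names the other clone than the title does. Groups follow the titles. Calls of tested members that were lost or gained without these 4 libraries are given with each comparison.

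Replication-dependent histones package newly made DNA: H2A, H2B, H3 and H4 form the core around which DNA is wound, and H1 sits on the linker between cores. Their genes lie in clusters, mostly have no introns, and are transcribed mainly while DNA is copied. Their mRNAs normally end in a conserved stem-loop bound by the protein Slbp in place of a poly(A) tail. Small nucleolar RNAs (snoRNAs) guide chemical modification of other RNAs, box C/D members for methylation and box H/ACA members for pseudouridine, and in mammals most are cut out of introns of a host gene. Spliceosomal snRNAs, U7, 7SK, RNase P and RNase MRP RNA, and the RNA of the signal recognition particle also normally lack a poly(A) tail. The libraries were made from poly(A) RNA, so the values count those molecules that passed that selection and do not measure the whole pool.

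The stem-loops of the tested histones are shown because they mark the usual, tail-free end of these mRNAs. Each is written as DNA of the sense strand, 5′ to 3′, from the GENCODE vM21 transcript on GRCm38, with the 16 bases of the loop and its paired arms in capitals.
Hist1h1c: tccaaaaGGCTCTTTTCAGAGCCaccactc
Hist1h1e: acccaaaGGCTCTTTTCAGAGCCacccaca
Hist2h2aa1: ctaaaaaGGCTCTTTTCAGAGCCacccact
Hist2h2aa2: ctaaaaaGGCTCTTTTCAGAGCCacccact
Hist2h3c1: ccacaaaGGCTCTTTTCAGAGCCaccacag
Hist2h3c2: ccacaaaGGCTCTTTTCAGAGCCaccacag
Hist1h4i: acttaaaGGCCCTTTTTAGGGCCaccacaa

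They lie at chr13:23739505-23739534 (Hist1h1c, plus strand), chr13:23621775-23621804 (Hist1h1e, minus), chr3:96246025-96246054 (Hist2h2aa1, plus), chr3:96239777-96239806 (Hist2h2aa2, minus), chr3:96247320-96247349 (Hist2h3c1, plus), chr3:96238478-96238507 (Hist2h3c2, minus) and chr13:22040959-22040988 (Hist1h4i, minus). In 6 of the 7 the capitals are the same 16 letters, and Hist1h4i differs in its arms and loop. The pattern searched was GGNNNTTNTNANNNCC with arms of 6 bases that pair, on the sense strand of the longest GENCODE transcript. It was found in 45 of the 69 histone symbols and in 23 of 18599 other protein-coding genes (0.124%). The 45 symbols hold 8 different loop sequences, the most frequent in 25 of them. In 23 symbols the longest GENCODE transcript ran on for at least 100 bases past the loop, and 10 of these held AATAAA, the usual poly(A) signal, within the last 50 bases. Among the tested histones, that was so for Hist1h1c, with 840 bases after the loop, and for Hist2h3c1, with 1167. The RefSeq models, to which the table's entries refer, end within 0 to 40 bases of the loop in 43 of 44 histones with a placed loop. No match to these letters was found for the tested Hist1h2bc, Hist2h2be, Hist2h2bb and Hist1h2al. The transcripts searched were only 381 bases long for Hist2h2bb and 339 for Hist1h2al. A loop beyond the end of a searched transcript could not be found, so a missing match does not show that the gene lacks a loop. The form, ending at the loop or beyond it, from which the counted reads came was not tested.

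Few of the chosen transcripts were well counted. Of the 220 entries, 40 were at 0 in all 12 libraries, 180 had at least 1 read, 87 averaged at least 1 normalized count, and 15 averaged at least 10, the level set for testing. Histones took 29909 reads over the 12 libraries and small RNAs 4043. Among histones, 66 of 76 entries had a read and 11 were tested. Among small RNAs, 114 of 144 had a read and 4 were tested. Hist1h1c alone took 58.2% of the histone reads, and the leading 8 entries took 91.9%. Small RNA reads were spread more widely, with 8.48% on Snora65 and 39.9% on the leading 8. H1 genes took 17785 reads over 6 entries, H2A genes 5204 over 19, H2B genes 4922 over 26, H3 genes 1009 over 12 and H4 genes 989 over 13. Of the H2A reads, 3384 are those of Hist1h2al, whose ID RefSeq gives to a transcribed pseudogene, so the H2A total is not one of coding genes alone.

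The 12 libraries held 7269748 to 8662298 counted reads, recovered as whole numbers from the deposited values. Histones were 0.0102% to 0.0597% of the reads of a library and small RNAs 0.00320% to 0.00580%. Normalized totals were 6308467 to 7026916 in the cartilage libraries, against 4427817 to 4968523 in the monolayer libraries. CPM scaling, which takes a count as a share of all counted reads of its library, therefore lowered the median of all transcripts by 0.405 (P3D8) and 0.633 (P3E3) on the log2 scale in cartilage against monolayer, and calls of the named members that this changes are given with both scalings. Of the chondrocyte markers, 9 of 17 reached the level for testing, most of them only through cartilage. As a description, the list summed to normalized counts of 10230 to 15810 in P3D8 BMP9 against 724 to 887 in P3D8 monolayer, and 24040 to 49250 in P3E3 BMP9 against 842 to 921 in P3E3 monolayer. Endothelial and skeletal muscle markers were listed at 0 throughout, although Mki67 and Top2a, which dividing cells use, were also listed at 0 in all 12 libraries, so a 0 in this table is not read as absence.

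Summed over all entries, histone counts were several-fold higher in cartilage than in monolayer in both lines. The sums were 2416, 2645 and 2378 normalized counts in P3D8 BMP9, against 543, 508 and 613 in P3D8 monolayer. They were 3551, 4140.4 and 4132 in P3E3 BMP9, against 713, 715 and 608 in P3E3 monolayer. Every cartilage library lay above every monolayer library, and the P3E3 BMP9 libraries lay above the P3D8 BMP9 libraries. The ratio of means was 4.47 in P3D8 and 5.81 in P3E3, or 3.43 and 3.81 in CPM. Without Hist1h1c it was 3.12 in P3D8 and 4.20 in P3E3. In these bulk samples, fewer cells of a type and less RNA per cell cannot be told apart.

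Small RNA sums differed far less. They were 279, 283 and 306 normalized counts in P3D8 BMP9, against 196, 226 and 198 in P3D8 monolayer, and 288, 403 and 225 in P3E3 BMP9, against 176, 179.6 and 152 in P3E3 monolayer. Cartilage and monolayer libraries did not overlap in either line, and P3E3 BMP9 replicate 2 was the highest of all. The ratio of means was 1.40 in P3D8 and 1.81 in P3E3, but in CPM it was 1.08 and 1.19. Thus most of the difference in small RNA sums went with the scaling, while that of the histones was present under both scalings.

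**Figure D1:**
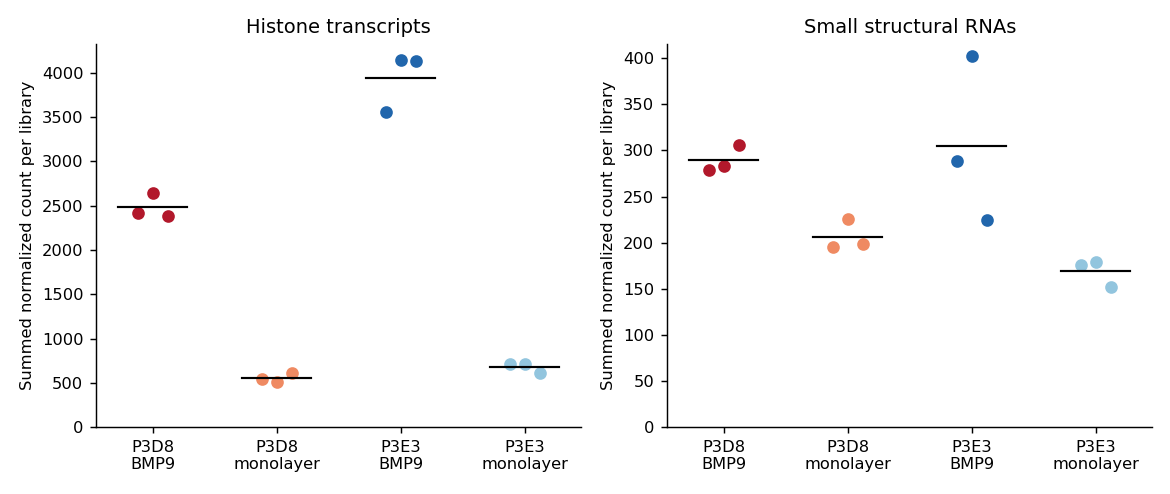
Summed normalized count per library (linear axis from 0) of the histone entries (one panel) and the small RNA entries (the other) in P3D8 BMP9, P3D8 monolayer, P3E3 BMP9 and P3E3 monolayer, with each point a library and each line the mean of 3. Histone sums were 2378 to 4140.4 in cartilage against 508 to 715 in monolayer, and small RNA sums 225 to 403 against 152 to 226.

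Entry by entry, with the untested ones included, 52 of the 66 counted histones had a higher mean in P3D8 BMP9 than in P3D8 monolayer and 11 a lower one (48 and 15 in CPM). In P3E3, 46 were higher in cartilage and 17 lower (42 and 21 in CPM). Of the 114 counted small RNAs, 65 were higher and 34 lower in P3D8 cartilage, and 74 were higher and 32 lower in P3E3 cartilage. In CPM the small RNAs divided evenly in P3D8, 49 higher and 50 lower, and 59 to 47 in P3E3. Most of these entries held few reads, and the counts are a description.

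Each transcript that averaged at least 10 normalized counts was tested with limma on log2(normalized count + 1), in a fit over 5333 transcripts with Benjamini-Hochberg adjustment over all of them. Fold changes are on that scale, which understates those of low transcripts, and a change was called at an adjusted p under 0.05. In P3D8, 9 of the 11 tested histones were called higher in cartilage and 0 lower, where 37.5% of all tested transcripts were called higher and 38.8% lower. The histones' median log2 fold change was 1.96, beside a median of -0.04 over all tested transcripts. In P3E3, 10 of 11 were called higher and 1 lower, where 41.4% of all were called higher and 38.3% lower, and the median was 2.58 beside 0.06. With CPM scaling, 10 histones reached the level for testing: 5 were called higher and 1 lower in P3D8, and 7 higher and 1 lower in P3E3. At that scaling 27.8% of all tested transcripts were called higher and 51.7% lower in P3D8, and 28.7% and 55.6% in P3E3. A histone low in monolayer reached the level for testing only through cartilage, so the 11 do not stand for the 76. Here and in the comparisons below, the 11 include Hist1h2al, whose ID RefSeq gives to a transcribed pseudogene.

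Of the linker histones, Hist1h1c carried most of the histone signal (NM_015786.3, H1f2 in RefSeq, chr13:23738807-23739531). Its normalized counts were 1542, 1791 and 1477 in P3D8 BMP9, against 275, 258 and 289 in P3D8 monolayer. In P3E3 BMP9 they were 2185, 2402 and 2390.3, against 324, 319.6 and 240.0 in P3E3 monolayer. All 6 cartilage libraries lay far above all 6 monolayer libraries, and the monolayer libraries of both lines overlapped. The log2 fold change in limma was 2.54 ± 0.11 (SE, n = 3 each, adjusted p = 5.95e-11) in P3D8 and 2.99 ± 0.11 (adjusted p = 6.86e-12) in P3E3. On the CPM scale it was 2.16 and 2.38.

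The promoter of Hist1h1c is shown for the motifs that histone promoters are known for, from 250 bases before to 50 after the start in RefSeq on GRCm38.p6, at chr13:23738557-23738856 on the plus strand. That of the H2A gene Hist2h2aa1, at chr3:96245247-96245546 on the plus strand, stands beside it. Capitals mark TATAAA (a form of the TATA box) and CCAAT, on either strand, so CCAAT may appear as ATTGG.
Hist1h1c promoter: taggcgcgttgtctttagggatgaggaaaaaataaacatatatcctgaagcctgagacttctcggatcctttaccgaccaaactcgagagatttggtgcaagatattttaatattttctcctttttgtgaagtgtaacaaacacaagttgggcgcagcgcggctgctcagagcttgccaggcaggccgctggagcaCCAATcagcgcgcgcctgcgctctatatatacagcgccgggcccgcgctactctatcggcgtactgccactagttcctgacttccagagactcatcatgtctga
Hist2h2aa1 promoter: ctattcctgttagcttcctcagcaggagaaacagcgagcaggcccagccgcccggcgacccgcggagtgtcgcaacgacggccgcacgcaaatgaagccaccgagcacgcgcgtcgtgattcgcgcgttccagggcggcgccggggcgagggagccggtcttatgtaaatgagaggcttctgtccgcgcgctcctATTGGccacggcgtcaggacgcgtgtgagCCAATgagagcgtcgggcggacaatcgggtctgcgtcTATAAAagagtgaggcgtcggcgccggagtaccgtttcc

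Hist2h2aa1 holds both motifs, while Hist1h1c holds CCAAT and no TATAAA in this window. Other forms of the TATA box were not searched, so Hist1h1c is not shown to lack one. Over 62 histone promoters in RefSeq, TATAAA was in 35 (56.5%), against 13.6% of 32851 promoters in all. CCAAT was in 53 (85.5%), against 37.4% of all, and the octamer ATTTGCAT, which factors of the Oct family bind, in 13 (21.0%), against 1.74% of all. Each motif was searched separately on both strands, and a match is a run of letters only.

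Hist1h1e, another linker histone, was among 3 tested histones that fell outside the rule for named genes and were added after their values were seen. It had 17.9, 10.7 and 11.9 normalized counts in P3D8 BMP9, against 2.61, 0 and 1.24 in P3D8 monolayer, and 21.4, 30.6 and 30.0 in P3E3 BMP9, against 1.81, 5.34 and 0.609 in P3E3 monolayer. The cartilage libraries were all higher, and the entry was tested only because they were. As a description, the log2 fold change was 2.82 ± 0.50 in P3D8 and 3.20 ± 0.50 in P3E3.

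The H2A entries ran from a strong to a modest increase. Hist1h2al is listed as a noncoding transcript, NR_132443.1, which RefSeq names H2af-ps2, a transcribed pseudogene (chr13:51200084-51203066). It had 211, 212 and 254 normalized counts in P3D8 BMP9, against 43.1, 50.8 and 68.9 in P3D8 monolayer. In P3E3 BMP9 it had 413, 577 and 552, against 83.9, 78.9 and 70.0 in P3E3 monolayer. Cartilage libraries were higher throughout, and P3E3 cartilage lay above P3D8 cartilage. The log2 fold change was 2.06 ± 0.18 in P3D8 and 2.70 ± 0.18 in P3E3 (limma adjusted p = 7.32e-08 and 2.88e-09).

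Hist2h2aa1 and Hist2h2aa2 encode the core histone H2A and lie near each other on chromosome 3, at chr3:96245497-96246052 and chr3:96239779-96240374. Every window of 100 bases of Hist2h2aa2 also occurs in Hist2h2aa1, so the division of reads between them is uncertain. Hist2h2aa1 had 62.6, 64.3 and 64.9 normalized counts in P3D8 BMP9, against 13.0, 5.79 and 23 in P3D8 monolayer, and 115, 187 and 172 in P3E3 BMP9, against 25.3, 26.7 and 23.1 in P3E3 monolayer. Hist2h2aa2 had 37.3, 41.2 and 30.1 in P3D8 BMP9, against 22.2, 16.7 and 22.4 in P3D8 monolayer, and 51.3, 56.2 and 73.8 in P3E3 BMP9, against 19.3, 16.6 and 16.4 in P3E3 monolayer. Neither entry overlapped between cartilage and monolayer of a line. Hist2h2aa1 differed by 2.30 ± 0.34 (log2, limma adjusted p = 2.57e-05) in P3D8 and 2.58 ± 0.34 (adjusted p = 7.29e-06) in P3E3. For Hist2h2aa2 the difference was 0.80 ± 0.21 (adjusted p = 0.00345) in P3D8 and 1.72 ± 0.21 (adjusted p = 3.25e-06) in P3E3. CPM scaling gave 0.43 in P3D8, no longer called, and 1.14 in P3E3.

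Of the H2B genes, Hist1h2bc rose in both lines and Hist2h2be did not. Hist1h2bc, which spans chr13:23684199-23692480, longer than its GENCODE transcript of 1156 bases, had 298, 252 and 266 normalized counts in P3D8 BMP9, against 60.0, 66.9 and 62.1 in P3D8 monolayer. In P3E3 BMP9 it had 411, 458 and 434, against 56.7, 51.6 and 68.2 in P3E3 monolayer. Replicates lay close together, and no cartilage library came near a monolayer library. It rose by 2.09 ± 0.13 on the log2 scale in P3D8 and by 2.87 ± 0.13 in P3E3 (limma adjusted p = 1.58e-09 and 3.71e-11).

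Hist2h2be (chr3:96221072-96223738) is an H2B gene whose human counterpart is known to give tailed transcripts too, and it had the lowest fold change of the tested histones in P3E3. Its normalized counts were 38.8, 30.5 and 32.4 in P3D8 BMP9, against 35.2, 30.9 and 42.8 in P3D8 monolayer, and 49.8, 43.0 and 46.3 in P3E3 BMP9, against 59.7, 67 and 69.4 in P3E3 monolayer. The P3D8 groups overlapped, while P3E3 cartilage lay below P3E3 monolayer. The log2 fold change was -0.09 ± 0.18 in P3D8 (limma adjusted p = 0.654) and -0.49 ± 0.18 in P3E3 (adjusted p = 0.0213). The P3E3 call was lost when P3E3 BMP9 replicate 2, P3E3 monolayer replicate 2 or P3E3 monolayer replicate 3 was left out (adjusted p = 0.0674, 0.0543 and 0.0608), and without the 4 libraries of unclear cell line (-0.49, adjusted p = 0.065). With CPM scaling Hist2h2be was called lower in both lines, by -0.46 in P3D8 and -1.08 in P3E3.

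Hist2h2bb, another H2B entry named after its values were seen (chr3:96269700-96270192), had 7.46, 23.9 and 19.0 normalized counts in P3D8 BMP9, against 18.3, 9.64 and 20.5 in P3D8 monolayer. It had 42.1, 52.1 and 54.1 in P3E3 BMP9, against 27.8, 32 and 21.3 in P3E3 monolayer. Only P3E3 cartilage stood apart from its monolayer. The difference was -0.02 ± 0.37 in P3D8 (log2, limma adjusted p = 0.960) and 0.86 ± 0.37 in P3E3 (adjusted p = 0.0452), and with CPM scaling neither was called (-0.38 and 0.27). The P3E3 call was also lost without any single P3E3 library but monolayer replicate 2, without P3D8 monolayer replicate 1 and with the replicate block (adjusted p = 0.0515 to 0.139).

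The tested H3 genes, Hist2h3c2 and Hist2h3c1, share 61.6% of the 100-base windows of Hist2h3c2, so their reads could also be divided wrongly. Hist2h3c2 (chr3:96238479-96239127) had 28.3, 26.4 and 23.7 normalized counts in P3D8 BMP9, against 17, 10.3 and 13.7 in P3D8 monolayer. In P3E3 BMP9 it had 41.4, 74.4 and 64.4, against 29.0, 25.5 and 13.4 in P3E3 monolayer. Cartilage and monolayer did not overlap in either line. The log2 fold change was 0.91 ± 0.30 in P3D8 (limma adjusted p = 0.0128) and 1.40 ± 0.30 in P3E3 (adjusted p = 0.000644). Under CPM scaling these were 0.55, not called, and 0.81, called, and without P3D8 monolayer replicate 2 the P3D8 call was lost (0.74, adjusted p = 0.0565).

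Hist2h3c1 (chr3:96246685-96247348), also added after its values were seen, had 11.9, 18.1 and 14.2 normalized counts in P3D8 BMP9, against 9.79, 3.86 and 10.6 in P3D8 monolayer. In P3E3 BMP9 it had 21.4, 25.6 and 33.5, against 14.5, 13.0 and 12.8 in P3E3 monolayer. It was called higher by 0.88 ± 0.32 in P3D8 (log2, limma adjusted p = 0.0218) and 0.93 ± 0.32 in P3E3 (adjusted p = 0.0158), and with CPM scaling in neither line (0.54 and 0.35). The P3D8 call was lost without P3D8 BMP9 replicate 2 or P3D8 monolayer replicate 2 (adjusted p = 0.0829 and 0.124), and the P3E3 call without P3E3 BMP9 replicate 3 (adjusted p = 0.0624).

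Hist1h4i, the only tested H4 gene (chr13:22040960-22041362), had 64.9, 64.3 and 60.9 normalized counts in P3D8 BMP9, against 12.4, 18.6 and 16.1 in P3D8 monolayer. It had 54.4, 68.6 and 92.7 in P3E3 BMP9, against 9.05, 7.71 and 8.53 in P3E3 monolayer. All cartilage libraries were higher, and the levels of both cartilages overlapped. It rose by 1.96 ± 0.22 on the log2 scale in P3D8 and 2.92 ± 0.22 in P3E3 (limma adjusted p = 1.67e-06 and 1.84e-08).

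**Figure D2:**
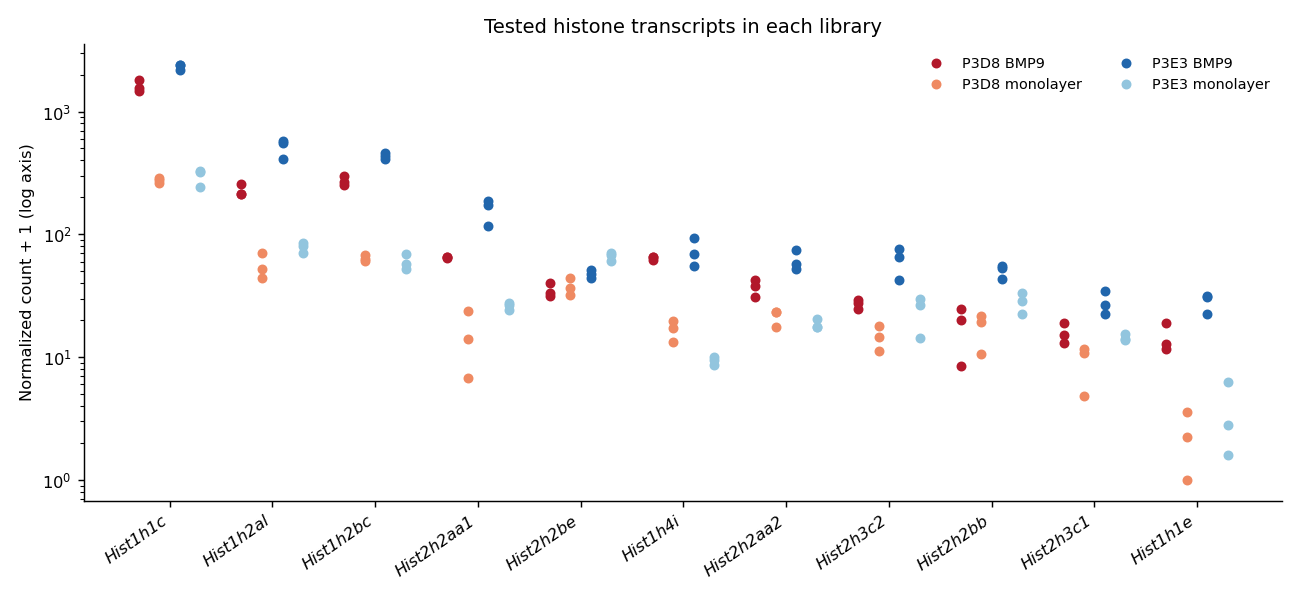
Normalized count plus 1 (log axis) of the 11 tested histone transcripts, with a point for each of the 3 libraries of P3D8 BMP9, P3D8 monolayer, P3E3 BMP9 and P3E3 monolayer. Hist1h1c stands highest, at 1477 to 2402 normalized counts in cartilage against 240.0 to 324 in monolayer, and Hist2h2be is the entry whose P3E3 cartilage libraries lie below its P3E3 monolayer libraries.

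A lower level for testing, an average of 5 normalized counts, brought in 16 histones and 14 small RNAs. Of these histones, 13 were called higher and 0 lower in P3D8 (38.4% and 34.6% of all tested transcripts), and 14 higher and 1 lower in P3E3 (40.9% and 35.2%). The newly tested Hist1h2bb, an H2B gene, differed most: it had 10.4, 12.4 and 11.9 normalized counts in P3D8 BMP9, against 0.652, 0 and 0 in P3D8 monolayer, and 7.66, 14.1 and 22.3 in P3E3 BMP9, against 1.21, 0.593 and 0 in P3E3 monolayer. Reads for it were near absent in monolayer, and like other entries low in monolayer it reached this level only through cartilage. So did the linker histone Hist1h1b and the H4 gene Hist1h4h, whose log2 fold changes, as a description, were 1.98 and 1.62 in P3D8 and 2.10 and 2.26 in P3E3. Hist1h2bg was called higher in both lines (1.38 and 1.31), and the linker histone Hist1h1d in neither. With CPM scaling Hist1h2bg was not called in P3E3 (0.76, limma adjusted p = 0.0571) and Hist1h1b fell below the level. These entries were named after their values were seen.

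Among small RNAs the sequences of the tested snoRNAs Snora65, Snord96a and Snord42b are shown from GENCODE vM21 on GRCm38. Beside them stand Snord4a, which shares its host gene with Snord42b, and Snord123, whose groups differed most. Snora73a, Snora81 and Snord22 were better counted than Snord4a and are not shown. Capitals mark ACA near the 3′ end for the H/ACA member Snora65. For box C/D members they mark TGATGA within the first 20 bases (box C) and CTGA within the last 20 (box D).
Snora65: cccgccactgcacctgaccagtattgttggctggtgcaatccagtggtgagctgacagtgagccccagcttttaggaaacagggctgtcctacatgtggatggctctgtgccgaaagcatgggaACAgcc
Snord96a: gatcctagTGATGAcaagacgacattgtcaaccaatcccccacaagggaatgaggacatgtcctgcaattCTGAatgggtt
Snord42b: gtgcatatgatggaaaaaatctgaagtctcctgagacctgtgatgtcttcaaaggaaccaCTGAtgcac
Snord4a: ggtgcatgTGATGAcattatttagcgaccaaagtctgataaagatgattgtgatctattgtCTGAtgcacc
Snord123: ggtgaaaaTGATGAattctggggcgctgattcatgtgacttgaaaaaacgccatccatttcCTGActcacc

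They lie at chr2:32963291-32963420 (Snora65, plus strand), chr11:48802032-48802112 (Snord96a, plus), chr11:78183056-78183124 (Snord42b, minus), chr11:78181686-78181756 (Snord4a, minus) and chr15:32241853-32241923 (Snord123, minus). Snord42b holds CTGA but not the letters TGATGA in the window for box C. Of 75 box C/D members with a sequence, 62.7% held TGATGA and 96.0% held CTGA in these windows, against 0 and 10.5% of 38 H/ACA members. ACA within the last 12 bases was found in 94.7% of H/ACA and 10.7% of box C/D members.

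The snoRNAs took most of the small RNA reads, 1815 for 76 box C/D entries and 1658 for 38 H/ACA entries. Of the 144 small RNA entries, 127 lie within another gene. The 34 in ribosomal protein genes took 1501 reads, the 22 in Snhg genes or Gas5, hosts that make no protein, took 762, the 71 in other genes took 1229, and the 17 outside any took 551. A read from an unspliced host transcript can fall on a snoRNA entry, and the share of such reads was not tested.

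At the level of 10, 0 of the 4 tested small RNAs were called higher and 1 lower in P3D8, where 37.5% and 38.8% of all tested transcripts were, with a median log2 fold change of 0.19. In P3E3, 1 was called higher and 0 lower, where 41.4% and 38.3% of all were, with a median of 0.34. With 4 entries these counts describe those entries only, and the higher one, Snord96a, reached the level only through cartilage. Snora65, in an intron of the ribosomal protein gene Rpl12, had 18.6, 18.1 and 22.9 normalized counts in P3D8 BMP9, against 17, 35.4 and 21.1 in P3D8 monolayer, and 19.9, 21.5 and 17.2 in P3E3 BMP9, against 15.7, 16.6 and 15.8 in P3E3 monolayer. P3D8 monolayer replicate 2 was the highest, and neither line was called (-0.23 and 0.26 on the log2 scale, limma adjusted p = 0.425 and 0.350). With CPM scaling it was called lower in P3D8 (-0.59, adjusted p = 0.0443), and the P3E3 value turned to -0.31 and was not called (adjusted p = 0.259). Its host Rpl12 was called lower in both lines (-1.21 and -0.62), with 4189 to 5159 normalized counts in P3D8 BMP9, against 9988 to 11291 in P3D8 monolayer.

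Snord96a, in the ribosome-bound scaffold gene Rack1, had 15.7, 17.3 and 16.6 normalized counts in P3D8 BMP9, against 10.4, 10.9 and 9.93 in P3D8 monolayer. In P3E3 BMP9 it had 18.4, 28.1 and 6.87, against 6.64, 8.89 and 7.92 in P3E3 monolayer. The P3D8 groups did not overlap, while P3E3 BMP9 replicate 3 fell among its monolayer libraries. Its monolayer libraries averaged under 10, so it was tested only because cartilage was higher. As a description, the log2 fold change was 0.62 ± 0.37 in P3D8 and 0.91 ± 0.37 in P3E3. The second was 0.36 with CPM scaling, 0.49 without P3E3 BMP9 replicate 2 and 0.80 without the 4 libraries of unclear cell line. The P3E3 call was lost in each of these, and without P3E3 BMP9 replicate 1, P3E3 monolayer replicate 1 or P3E3 monolayer replicate 3. Without P3E3 BMP9 replicate 3 the P3D8 difference became called. The host Rack1 was lower in P3D8 cartilage (-1.19) and not called in P3E3 (0.14, adjusted p = 0.308), where CPM scaling called it lower (-0.47).

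Snord42b and Snord4a both lie in the ribosomal protein gene Rpl23a, yet their values ran differently. Snord42b had 2.24, 7.42 and 4.75 normalized counts in P3D8 BMP9, against 6.52, 8.36 and 13.0 in P3D8 monolayer, and 11.5, 11.6 and 11.2 in P3E3 BMP9, against 21.7, 11.3 and 14.6 in P3E3 monolayer. Both pairs of groups overlapped. The P3D8 difference of -0.89 ± 0.36 was called (limma adjusted p = 0.0375), and CPM scaling gave -1.21. Without the 4 libraries of unclear cell line it was -0.27 and not called (adjusted p = 0.553). The call was also lost without P3D8 BMP9 replicate 1 (-0.52, adjusted p = 0.193), P3D8 BMP9 replicate 3, P3D8 monolayer replicate 2 or P3D8 monolayer replicate 3 (adjusted p = 0.0568, 0.0596 and 0.158), with the replicate block (0.0509), and in edgeR or DESeq2 on recovered reads (0.0829 and 0.137). In P3E3 the difference was -0.40 and not called (limma adjusted p = 0.323), while CPM scaling called it lower (-0.96, adjusted p = 0.0237).

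Snord4a, below the main level for testing, had 17.2, 6.59 and 7.91 normalized counts in P3D8 BMP9, against 3.91, 1.93 and 3.73 in P3D8 monolayer, and 11.5, 14.1 and 15.4 in P3E3 BMP9, against 3.02, 2.37 and 3.05 in P3E3 monolayer. All cartilage libraries were above all monolayer libraries. It lay below 5 in every monolayer library and so reached that lower level for testing only through cartilage. As a description, the log2 fold change was 1.39 in P3D8 and 1.94 in P3E3, or 1.08 and 1.43 with CPM scaling. Rpl23a itself was lower in P3D8 cartilage (-0.97) and higher in P3E3 cartilage (0.51), although CPM scaling turned the P3E3 value to -0.10, not called.

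Of the other well counted snoRNAs, Snora73a, in Snhg3, belongs to a near-identical pair with Snora73b. It had 11.2, 9.89 and 13.5 normalized counts in P3D8 BMP9, against 13.7, 14.1 and 8.07 in P3D8 monolayer, and 14.6, 16.5 and 3.43 in P3E3 BMP9, against 3.02, 2.96 and 2.44 in P3E3 monolayer. P3E3 monolayer was lowest, and P3E3 BMP9 replicate 3 lay near it. At the level of 5 it was called in P3E3 only (1.49, limma adjusted p = 0.00631), and its host Snhg3 was called higher in both lines (0.96 and 1.63).

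Snora81, in the translation factor gene Eif4a2, had 5.97, 14 and 15.8 normalized counts in P3D8 BMP9, against 9.13, 12.2 and 6.83 in P3D8 monolayer, and 9.19, 13.2 and 6.87 in P3E3 BMP9, against 4.22, 2.37 and 7.31 in P3E3 monolayer. Groups overlapped in both lines. At the level of 5 it was called higher in P3E3 (0.99, limma adjusted p = 0.0413), with CPM scaling it was not (0.47, adjusted p = 0.310), and in P3D8 it was not called (0.25, adjusted p = 0.599). Its host is listed at 0 in all 8 of its entries.

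Snord22, in Snhg1, had 8.2, 11.5 and 5.54 normalized counts in P3D8 BMP9, against 5.87, 7.71 and 7.45 in P3D8 monolayer, and 9.96, 13.2 and 10.3 in P3E3 BMP9, against 6.04, 4.74 and 7.92 in P3E3 monolayer. Snord22 overlapped between the P3D8 groups and lay higher in P3E3 cartilage. At the level of 5 the P3E3 difference of 0.76 was called (limma adjusted p = 0.0339), but with CPM scaling it was 0.22 and not called (adjusted p = 0.514). Its host Snhg1 was called lower in both lines, by -2.15 and -2.19.

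At the level of 5, 3 of 14 small RNAs were called higher and 1 lower in P3D8, where 38.4% of all tested transcripts were called higher and 34.6% lower. In P3E3, 11 were called higher and 0 lower, where 40.9% and 35.2% of all were. As among the histones, some reached this level only through cartilage. With this level and CPM scaling together, 15 were tested: 2 were higher and 1 lower in P3D8 (28.9% and 46.5% of all tested), and 6 higher and 1 lower in P3E3 (28.7% and 51.4%). Snord123, a box C/D snoRNA in Snhg18 named after its values were seen, differed most. It had 25.4, 12.4 and 13.5 normalized counts in P3D8 BMP9, against 0.652, 1.29 and 0 in P3D8 monolayer, and 9.96, 8.27 and 4.29 in P3E3 BMP9, against 0 in all 3 libraries of P3E3 monolayer. Nearly all its reads came from cartilage. It reached the level of 5 only through cartilage, so its log2 fold change in P3D8, 3.47, is a description. In P3E3 the mean was at least 4.16-fold higher in cartilage, set against a floor of 3 reads per monolayer library. Its host Snhg18 had 1784, 1718 and 1991 normalized counts in P3D8 BMP9, against 244, 254 and 194 in P3D8 monolayer, and 1515, 1651 and 1683 in P3E3 BMP9, against 111, 87.7 and 121 in P3E3 monolayer. It was called higher in both lines, by 2.99 and 3.92 on the log2 scale.

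Rn7sk, the 7SK RNA that holds the elongation factor P-TEFb inactive, lies in no host gene and took 307 reads. It had 8.95, 11.5 and 14.2 normalized counts in P3D8 BMP9, against 8.48, 5.79 and 7.45 in P3D8 monolayer, and 23.7, 62.8 and 11.2 in P3E3 BMP9, against 26.0, 30.8 and 8.53 in P3E3 monolayer. P3E3 libraries varied widely, with replicate 2 highest in both groups. Neither line was called (0.60 ± 0.53 and 0.41 ± 0.53 on the log2 scale, limma adjusted p = 0.310 and 0.483), and with CPM scaling the P3E3 value turned to -0.17, not called.

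**Figure D3:**
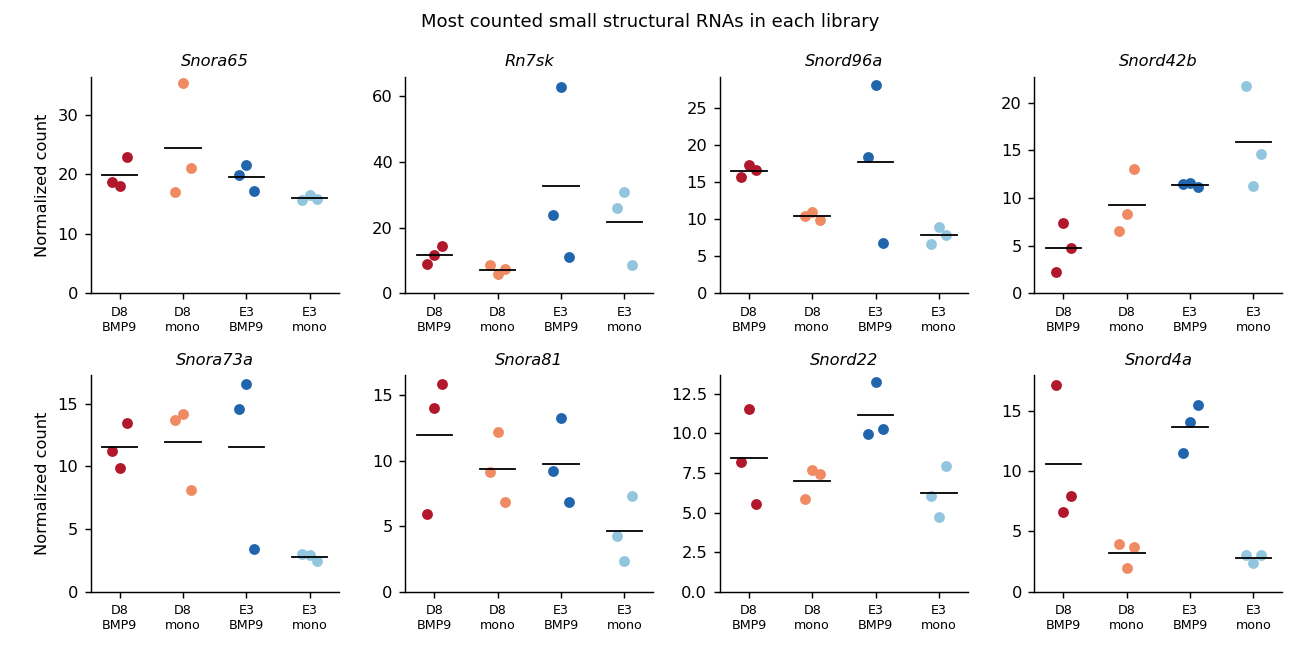
Normalized count (linear axis from 0) of the 8 most counted small RNAs, each panel 1 RNA, with a point per library for P3D8 BMP9, P3D8 monolayer, P3E3 BMP9 and P3E3 monolayer and a line at the mean of 3. Rn7sk reaches 62.8 in 1 P3E3 BMP9 library, and Snord4a lies at 6.59 to 17.2 in cartilage against 1.93 to 3.91 in monolayer.

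The remaining small RNAs with symbols of the Rmrp, Rpph1, Rnu, Rn7s and Scarna kinds were barely counted. Rmrp, the RNA of RNase MRP, which cuts ribosomal RNA precursors, took 75 reads. It had 0.746, 2.47 and 1.58 normalized counts in P3D8 BMP9, against 2.61, 3.86 and 2.48 in P3D8 monolayer, and 1.53, 16.5 and 1.72 in P3E3 BMP9, against 4.22, 13.6 and 0.609 in P3E3 monolayer. Replicate 2 of each P3E3 group stood above the rest, as for Rn7sk. Rpph1, the RNA of RNase P, which trims tRNA precursors, took 58 reads. It had 0.746, 1.65 and 3.96 in P3D8 BMP9, against 1.96, 1.29 and 3.10 in P3D8 monolayer, and 2.30, 5.79 and 1.72 in P3E3 BMP9, against 7.24, 8.30 and 1.22 in P3E3 monolayer. Its groups overlapped in both lines. Rnu7, the U7 RNA that guides the cut at the end of histone mRNAs, took 63 reads, with 4.47, 7.42 and 3.96 in P3D8 BMP9, against 3.26, 1.29 and 2.48 in P3D8 monolayer, and 3.06, 1.65 and 3.43 in P3E3 BMP9, against 3.62, 4.15 and 5.48 in P3E3 monolayer. The Rnu7 values of cartilage lay above those of monolayer in P3D8 and below them in P3E3, at a few reads per library and with no test.

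The RNAs of the signal recognition particle, Rn7s1 and Rn7s2, took 15 and 7 reads. Rn7s1 had 0 in all 3 libraries of P3D8 BMP9, against 1.30, 0 and 0 normalized counts in P3D8 monolayer, and 3.06, 1.65 and 4.29 in P3E3 BMP9, against 0.604, 0.593 and 0 in P3E3 monolayer. Rn7s2 had 0 in all 3 libraries of P3D8 BMP9, against 0, 0.643 and 0 in P3D8 monolayer, and 0, 2.48 and 1.72 in P3E3 BMP9, against 0, 0 and 0.609 in P3E3 monolayer. Most reads of both came from P3E3 cartilage. Of 9 spliceosomal snRNA entries, Rnu1a1 took 12 reads and Rnu11, Rnu12, Rnu5g and Rnu2-10 took 1 each, while Rnu6, Rnu1b1, Rnu1b2 and Rnu1b6 had 0. Rnu1a1, a U1 entry, had 0.746, 0.824 and 0.791 normalized counts in P3D8 BMP9, against 0 in all 3 libraries of P3D8 monolayer, and 1.53, 1.65 and 0 in P3E3 BMP9, against 0, 2.96 and 0 in P3E3 monolayer. The U3 entries Rnu3a and Rnu3b1 took 2 and 1 reads, and Rnu3b2, Rnu3b3 and Rnu3b4 had 0. Rnu73b took 14 reads, with 0, 2.47 and 0.791 in P3D8 BMP9, against 1.30, 1.29 and 0 in P3D8 monolayer, and 0.766, 1.65 and 0.858 in P3E3 BMP9, against 0, 0.593 and 0.609 in P3E3 monolayer. The 9 scaRNA entries, guides for snRNAs, took 12 together. These entries were below the levels for testing and were not tested.

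Between the clones, histones were mostly lower in P3D8 cartilage than in P3E3 cartilage. In P3D8 BMP9 against P3E3 BMP9, 0 of 11 tested histones were called higher and 8 lower, where 22.0% of all tested transcripts were called higher and 28.3% lower. The median log2 fold change was -0.82, beside -0.03 over all. The largest called differences were Hist2h2bb (-1.64 ± 0.37, limma adjusted p = 0.0022), Hist2h2aa1 (-1.26 ± 0.34, adjusted p = 0.00729) and Hist1h2al (-1.17 ± 0.18, adjusted p = 8.73e-05). Hist1h1c was lower by -0.54 ± 0.11 (adjusted p = 0.00127). Hist1h4i, Hist1h1e and Hist2h2be were not called, at -0.15 (adjusted p = 0.614), -0.98 (0.119) and -0.45 (0.0502). Hist2h2be was called without P3D8 BMP9 replicate 1, P3D8 monolayer replicate 2 or P3D8 monolayer replicate 3 (0.0428 to 0.0455). A pseudocount of 5 gave a call for both Hist1h1e and Hist2h2be, and fitting only the groups compared gave one for Hist1h1e. Of the small RNAs, Snord42b was called lower and the other 3 were not called by limma. Snord42b averaged under 10 over the P3D8 libraries and reached the level for testing only through P3E3. Its log2 difference of -1.20 ± 0.36 is therefore a description. The Snord42b call was lost without P3D8 BMP9 replicate 1 (adjusted p = 0.0695), without the 4 libraries of unclear cell line (-0.83, adjusted p = 0.125) and in DESeq2 (0.06). In turn, edgeR and DESeq2 on recovered reads called Rn7sk lower. Rn7sk also averaged under 10 over the P3D8 libraries and reached the level only through P3E3, so these calls are a description too. The Hist2h3c1 call (-0.82, limma adjusted p = 0.0464) was lost with CPM scaling (-0.71, adjusted p = 0.0836), without the 4 libraries (-0.83, adjusted p = 0.138) and without any of 7 single libraries, and that of Hist2h2aa2 (-0.72, adjusted p = 0.0117) without P3E3 BMP9 replicate 3 (-0.57, adjusted p = 0.0515). Grouping the libraries by the cell line entry in place of the title left 0 of these histone calls, whereas without the 4 libraries in question 7 histones were called.

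In P3D8 monolayer against P3E3 monolayer, 1 of 11 tested histones was called higher and 3 lower, where 26.7% of all were called higher and 23.4% lower. Hist1h4i was the higher one (0.81 ± 0.22, limma adjusted p = 0.0078), so its level was above that of P3E3 in monolayer and did not differ detectably in cartilage. Hist2h2aa1 (-0.98 ± 0.34, adjusted p = 0.0279), Hist2h2be (-0.84 ± 0.18, adjusted p = 0.00128) and Hist1h2al (-0.53 ± 0.18, adjusted p = 0.0212) were lower. Without the 4 libraries of unclear cell line the Hist1h4i call was lost (0.79, adjusted p = 0.0535). The Hist2h2aa1 call was lost without P3D8 monolayer replicate 2 (-0.50, adjusted p = 0.128) and without P3D8 monolayer replicate 1, P3E3 monolayer replicate 1 or P3E3 monolayer replicate 2 (adjusted p = 0.0507 to 0.073). Leaving out any of the same 4 libraries also ended the Hist1h2al call (adjusted p = 0.0535 to 0.104). Hist2h3c2 and Hist2h3c1 became called lower with CPM scaling (-0.77 and -0.90, adjusted p = 0.0414 and 0.0317), and Hist2h3c2 and Hist2h2bb without the 4 libraries of unclear cell line (-0.98 and -1.11, adjusted p = 0.0238 and 0.0234). None of the 4 small RNAs was called by limma. Rn7sk was closest (-1.30 ± 0.53, adjusted p = 0.0536). It was called lower by edgeR and DESeq2 on recovered reads, and by limma with CPM scaling and without the 4 libraries. Rn7sk averaged under 10 over the P3D8 libraries and reached the level for testing only through P3E3, so these calls are a description.

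The cartilage response itself, the fold change in P3D8 minus that in P3E3, was tested as an interaction. Of the 11 histones, 0 were called for a larger and 5 for a smaller change in P3D8, where 18.7% of all tested transcripts were called in the first direction and 27.8% in the second, and the median was -0.48 beside -0.07. The differences were -0.45 ± 0.16 for Hist1h1c (limma adjusted p = 0.0334), -0.78 ± 0.18 for Hist1h2bc (0.00256), -0.96 ± 0.32 for Hist1h4i (0.0236), -0.93 ± 0.30 for Hist2h2aa2 (0.0212) and -0.64 ± 0.25 for Hist1h2al (0.0469). With CPM scaling only Hist1h2bc was called (-0.56), and the calls of Hist1h1c, Hist1h4i, Hist2h2aa2 and Hist1h2al were lost (adjusted p = 0.0575 to 0.256). Those 4 calls were also lost without the 4 libraries of unclear cell line (adjusted p = 0.058 to 0.179) and without P3E3 BMP9 replicate 3 (0.0505 to 0.0903). Leaving out other single libraries ended the calls of Hist1h1c (6 libraries), Hist1h2al (7 libraries) and Hist1h4i (P3D8 monolayer replicate 2). No small RNA at the level of 10 was called, and all 4 comparisons share groups, so their counts are not independent of each other.

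**Figure D4:**
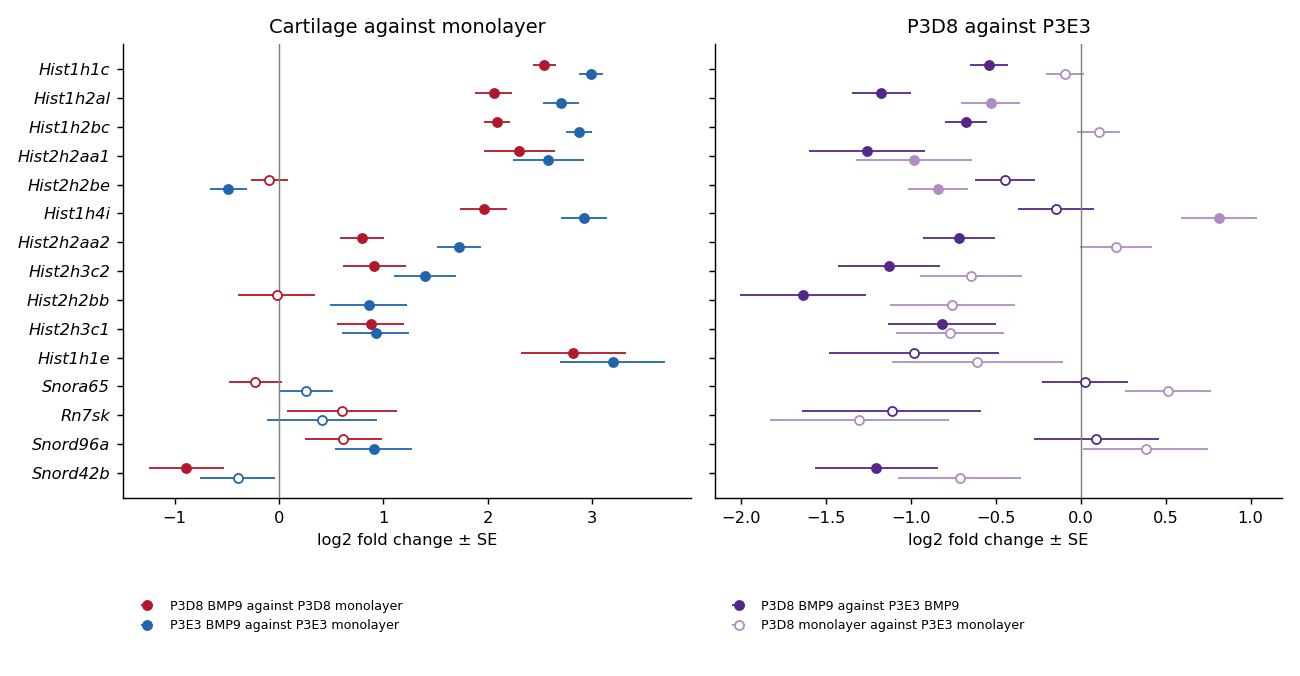
Log2 fold change with its SE (bars) of the 11 tested histones and 4 tested small RNAs in limma, cartilage against monolayer of each line in one panel and P3D8 against P3E3 in the other, filled where called. Most histones lie right of 0 for cartilage (medians 1.96 in P3D8 and 2.58 in P3E3) and left of 0 for P3D8 BMP9 against P3E3 BMP9 (median -0.82), while the small RNAs lie on both sides of 0 in each panel.

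Of the genes that act with histones and small RNAs, most tested ones were lower in cartilage of both lines or not called. Of 11 tested S phase genes of 22 listed, which copy DNA or make its building blocks, 0 were called higher and 9 lower in P3D8 cartilage (median -0.84), and 0 and 8 in P3E3 cartilage (median -0.78). These and the lists that follow stand beside shares of all tested transcripts of 37.5% called higher and 38.8% lower in P3D8, and 41.4% and 38.3% in P3E3, and a list of few genes near those shares shows nothing of its own. The histone chaperone Asf1b fell by 3.16 and 2.90 on the log2 scale, to 25.6 ± 8.79 normalized counts in P3D8 BMP9 against 237 ± 75.4 in P3D8 monolayer, and to 29.2 ± 12.9 in P3E3 BMP9 against 216 ± 56.3 in P3E3 monolayer (SD, n = 3 each). Summed, the tested and untested S phase genes held 2504 to 2585 normalized counts in P3D8 BMP9 against 4596 to 6415 in P3D8 monolayer, and 2178 to 2413 in P3E3 BMP9 against 5365 to 6735 in P3E3 monolayer. The mitotic genes Cdk1 and Ccnb1, the tested ones of 6 markers of dividing cells, were called lower in both lines, with medians of -3.11 and -3.41. Thus the histone counts were higher in the libraries in which S phase and mitotic genes were lower, and the part of cell division in the histone values was not tested.

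Of 17 genes that process or degrade the ends of histone mRNAs, 5 were tested: 1 was higher and 3 lower in each line (medians -0.66 and -0.46). Eri1, an exonuclease that acts on the stem-loop, was lower by -1.26 and -1.03, and Lsm11, a U7 partner, by -0.70 and -2.23. Slbp, the stem-loop binding protein, was listed at 0. Of 11 genes listed as replication-independent histone variants, 5 were tested: 0 were higher and 2 lower in P3D8 (median -0.03), and 1 higher and 2 lower in P3E3 (median -0.08). How the mRNAs of this list end was not tested. H2afx, which marks DNA breaks when phosphorylated, was lower by -1.88 and -1.11.

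Of 6 tested proteins of snoRNA particles, 0 were higher and 5 lower in P3D8 (median -1.05), and 1 higher and 5 lower in P3E3 (median -0.79). Fbl, the methylase of box C/D particles, was lower by -2.14 and -1.84. Of 12 tested snoRNA hosts that make no protein, 3 were higher and 8 lower in P3D8 (median -0.85), and 6 higher and 6 lower in P3E3 (median -0.08). Of 8 tested genes for making snRNAs, 1 was higher and 6 lower in P3D8 (median -0.46), and 1 higher and 2 lower in P3E3 (median -0.13). The single tested RNase P and MRP protein, Pop7, was at -1.04 and -0.71, and of 7 tested proteins of the signal recognition particle 1 was higher and 2 lower in P3D8 (median -0.25) and 2 and 2 in P3E3 (median 0.13). CPM scaling moved the whole table towards lower, to 27.8% of all tested transcripts called higher and 51.7% lower in P3D8, and 28.7% and 55.6% in P3E3, and most of these lists with it. S phase genes were then 0 higher and 9 lower in both lines, histone end processing genes 0 and 4 in P3D8 and 1 and 4 in P3E3, and histone variants 0 and 3 in P3D8 and 0 and 4 in P3E3. The snoRNA particle proteins were 6 of 6 lower in both lines, snRNA genes 1 higher and 7 lower in both, and signal recognition particle proteins 1 and 5 in P3D8 and 1 and 4 in P3E3. The hosts that make no protein were 3 and 9 in P3D8 and 4 and 6 in P3E3, and of 2 tested RNase P and MRP proteins both were lower in both lines. Of the ribosomal RNAs listed as other molecules without a tail, 0 of 6 are in the table.

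**Figure D5:**
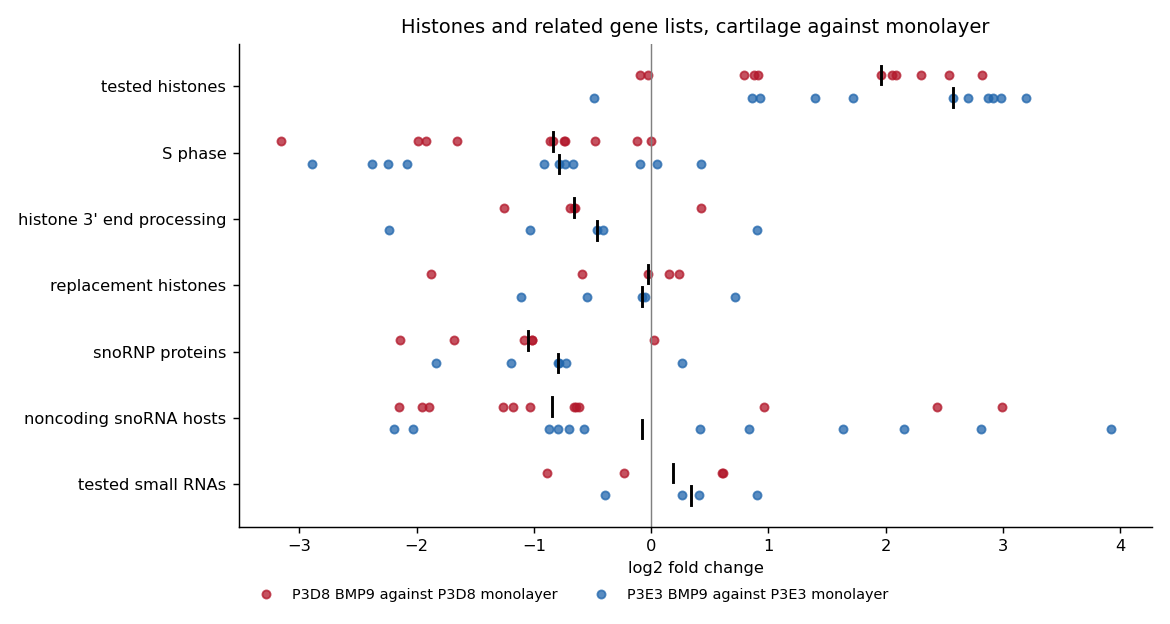
Log2 fold change in limma of each tested gene of the histones, small RNAs and related lists, cartilage against monolayer in P3D8 and in P3E3, with each point a gene and each black bar the median of its list. Histones lie mostly right of 0 (medians 1.96 and 2.58) and S phase genes left of it (medians -0.84 and -0.78).

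Markers of other cell types also moved. Fibroblast markers summed to 1081000 to 1148000 normalized counts in P3D8 BMP9 against 131600 to 158600 in P3D8 monolayer, and to 598300 to 693500 in P3E3 BMP9 against 65320 to 67270 in P3E3 monolayer, with 6 of 8 tested called higher and 0 lower in P3D8, and 7 higher and 1 lower in P3E3. Blood markers summed to 4 to 6 in P3D8 BMP9 against 40 to 66 in P3D8 monolayer, and to 0 to 4 in P3E3 BMP9 against 3 to 5 in P3E3 monolayer. Keratinocyte markers summed to 79 to 117 in P3D8 BMP9 against 0 to 1 in P3D8 monolayer, and to 15 to 28 in P3E3 BMP9 against 0 to 2 in P3E3 monolayer, of which Trp63 was the tested one. Their part in the histone and small RNA values was not tested.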

How the data were processed

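The authors sequenced poly(A) RNA as 100-bp paired reads (BGISEQ-500), aligned with HISAT2 to mm10, counted with HTSeq and scaled the counts with DESeq2 size factors set jointly with public cartilage data. Versions, strand setting and annotation are not given in the sources used here. The deposited signal is thus a normalized count per RefSeq transcript. All values (100.0%, tolerance 0.01) returned to whole reads. A second deposited table holds the authors' group means, fold changes and p-values and was not used.

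Here limma 3.58.1 (R 4.3.3) with a variance trend was fitted to log2(normalized count + 1) over the 4 groups, for transcripts averaging at least 10. Alternatives were edgeR 4.0.16 and DESeq2 1.42.0 on recovered reads, other scalings, filters and pseudocounts (0.5, 5), a fold threshold of 1.5 (log2), a replicate block and left-out libraries. Python 3.11.15 did the rest. Sequences are from RefSeq (GRCm38.p6) and GENCODE vM21 (GRCm38); all symbols matched RefSeq. Every library is given for the 8 histones and 8 small RNAs with the highest means, for members called in the interaction and for the Rnu, Rmrp, Rpph1 and Rn7s entries (those with 2 reads or fewer by their reads alone), and up to 3 genes with the largest change may be named per list. The members and lists were chosen with earlier results of these data known. Scripts were tested on simulated data. P-values measure the spread between the 3 libraries of a group, with 1 estimate of spread shared over the 4 groups.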

Additional observations from a re-analysis of the deposited data

Results flagged for a closer look

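For 5 histone entries the change between cartilage and monolayer differed between the lines by the interaction test in limma. It was smaller in P3D8 than in P3E3, a direction in which 27.8% of all tested transcripts were called. Hist1h2al, among the 5, has an ID that RefSeq gives to a transcribed pseudogene. The difference of the log2 fold changes was -0.45 for Hist1h1c, -0.78 for Hist1h2bc, -0.96 for Hist1h4i, -0.93 for Hist2h2aa2 and -0.64 for Hist1h2al. Hist2h2aa2 shares its sequence with Hist2h2aa1, whose own difference was -0.28 and not called (adjusted p = 0.665). With CPM scaling only Hist1h2bc was called, and without the 4 libraries of conflicting cell line entry the other 4 calls were lost (limma adjusted p = 0.058 to 0.179).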

How the results depend on the processing

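Calls of 60 single results were refitted, giving 1434 values: 1303 kept direction and side of the threshold, 100 lost a call, 29 gained one and 2 reversed. Another 28 changed sign without a call in either fit. The comparisons are given in 1 order throughout: cartilage against monolayer in P3D8, the same in P3E3, the clones in cartilage, the clones in monolayer, and the interaction. The main fit called 9, 11, 8, 4 and 5 histones and 1, 1, 1, 0 and 0 small RNAs. An average of 5 gave 4, 11, 2, 2 and 2 small RNAs. An average of 50 gave 4, 4, 4, 2 and 3 histones and left no small RNA to test. With no filter, histones were 20, 22 and, in the interaction, 3, and small RNAs 8, 13, 2 and 2 in the first 4 comparisons. CPM scaling gave 1 histone in the interaction, and 2 small RNAs in P3D8 and 1 between monolayers. An average of 5 with CPM scaling, added after seeing the data, gave 3, 7, 2, 3 and 1 small RNAs, 7 histones between monolayers and 1 in the interaction.

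The replicate block gave 0 small RNAs in P3D8 and 1 between monolayers, and 10 and 7 histones in P3E3 and between cartilages. The labels give same-numbered samples only a shared number. Their deviations from the group mean correlated at -0.306 to 0.116, which with 3 samples per group cannot decide whether they were paired. Grouping by the cell line entry gave 0 histones in both clone comparisons and the interaction, and 0 small RNAs in the first 3 comparisons. It reversed Snord42b between cartilages (0.10) and Hist1h1c in the interaction (0.0647). Without the 4 libraries in question, small RNAs were 0, 0, 0 and 1, and the interaction held 1 histone. Fitting only the groups compared gave 0 small RNAs in P3E3 and 1 between monolayers. edgeR gave small RNAs of 0 in P3D8, 2 between cartilages and 1 between monolayers, and 3 histones in the interaction. DESeq2 gave 0 small RNAs in P3D8 and 1 between monolayers. A log2 fold change of at least 1.5 left 7, 1, 0 and 0 histones in the last 4 comparisons and 0 small RNAs in the first 3.

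Leaving out each library in turn gave 8 to 10, 8 to 12, 6 to 9, 2 to 5 and 1 to 5 histones, and 0 to 2 small RNAs in the first 4 comparisons and 0 to 0 in the interaction. The difference of the mean log2 histone sums, 2.16 in P3D8 and 2.54 in P3E3, was 1.78 and 1.93 as a share of reads and 1.65 and 2.06 without Hist1h1c. Between clones, without Hist1h1c, it was -0.87 in cartilage (-0.67 with it) and -0.46 in monolayer (-0.29). That of small RNAs, 0.49 and 0.82, was 0.11 and 0.21 as a share of reads. Most members held too few reads for a test.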
